A study of Mus musculus with 9 samples.

Results

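The Sfmbt2 intronic cluster is a large group of mouse microRNA hairpins, and its products in serum were taken here as every known microRNA row named miR-297, miR-466, miR-467 or miR-669. This rule found 30 of 1064 known rows, or of 1169 rows when predicted microRNAs are included. Of the 30 rows, 1 is a miR-297, 12 are miR-466, 4 are miR-467 and 13 are miR-669. The rule used names alone and no measured value. MicroRNAs were counted by small RNA sequencing of small extracellular vesicles, which are membrane-bound particles that cells release, precipitated from mouse serum with a commercial reagent. The 9 libraries fall into 3 groups of 3: wild-type mice fed chow (chow WT in the plots, chow in the text), wild-type mice fed high fat diet (HFD WT, here HFD), and mice on the latter diet with Sirt3 overexpressed in adipose tissue only (HFD Sirt3 AKI, here AKI). Sirt3 is a mitochondrial deacetylase. The title gives male mice, and the labels name neither the age of the mice, nor the promoter or Cre line behind the adipose specificity, nor whether serum was pooled.

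Sfmbt2 encodes a Polycomb group protein. Its mouse gene carries in 1 intron a tandemly repeated array of hairpins that is found in rodents and is best known from the placenta and from embryonic stem cells, where the host gene is imprinted and read from the paternal copy. The hairpins resemble each other because the array grew by duplication, and many of their arms are runs of alternating bases such as UG or AC. A short read can therefore fit several of them.

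The position of the hairpins was checked against the label. RefSeq lists 81 hairpins with these 4 numbers, of which 71 lie between the ends of Sfmbt2 and 10 lie elsewhere (assembly GRCm38.p6; the submitters' notes name mm8, so coordinates are not given). By the GENCODE M21 annotation all 71 have the strand of Sfmbt2, none overlaps an Sfmbt2 exon, and all lie in 1 interval between exons. Of the 30 rows, 26 matched only hairpins inside Sfmbt2. The rows miR-466f and miR-466f-5p each match 4 hairpins, of which 3 are inside. The hairpin of miR-466q lies outside the gene, and miR-466a-3p was matched to no hairpin by name. The label thus held for 26 rows in full and for miR-466q not at all.

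The mature sequence of 1 member was found in the RefSeq table, that of miR-466q. It is printed with the other 2 known microRNAs whose RefSeq sequence holds the same kind of repeat, to show what such a repeat looks like. The hairpin of miR-466q lies outside Sfmbt2, so the print does not show how alike the reads of the cluster are. Capitals mark UGUGUGUG or ACACACAC, read on the printed strand only and counted with overlapping copies. A total of 3 of 916 known rows with a RefSeq mature sequence (0.328%) hold either run. Only 1 of the 30 members is among these 916, so the share leaves out the rest of the cluster.
miR-466q: gugcACACACACACauacgu
miR-672-5p: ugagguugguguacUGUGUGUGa
miR-32-3p: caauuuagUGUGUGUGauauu
In miR-466q the AC run begins within the seed (bases 2 to 8 from the 5′ end) and extends beyond it. The UG run of miR-672-5p and of miR-32-3p lies wholly behind the seed. These are RefSeq sequences of build GRCm38.p6. A match to the run is a description of the letters only.

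The cluster was scarce in serum vesicles. Its 30 rows held 1492 counts over the 9 libraries, 0.0108% of all counts, and miR-669c-5p alone held 819 of these (54.9%). Together with miR-467c-5p (198 counts), miR-467e-5p (183) and miR-467d-5p (156) it made up 90.9% of the cluster's counts. These 4 rows passed the filter on low counts and could be tested. The other 26 rows could not be tested, and 25 rows had fewer than 20 counts over all libraries. Because 8 sets of rows had identical counts in every library, there were 20 distinct profiles among the 30 rows. The 8 rows with a single count all fell in such sets. The sets with the most counts were miR-669a-3p with miR-669o-3p (14 counts each), and miR-466b-3p with miR-466c-3p and miR-466p-3p (6 each). Whether identical rows share reads or coincide because they are scarce was not tested.

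Along Sfmbt2 the counts were uneven from one hairpin to the next. Numbering the 71 hairpins in order from the 5′ end of the gene, the abundant miR-467c is number 13, miR-467e is number 52, miR-467d is number 54 and miR-669c is number 57. The hairpin numbered 53, miR-466p, lies between miR-467e and miR-467d, and its 3p row had 6 counts. These counts equal those of miR-466b-3p and miR-466c-3p in every library, so whether they come from this hairpin is not known. Just behind miR-669c, miR-297b (number 59) had 6 counts and miR-466d (number 60) had 14. Beside miR-467c, miR-466o (number 12) had 1. Each of the 4 abundant rows matched 1 hairpin by name. The 21 rows that match a single hairpin held 1454 counts, while 34 counts fell on rows that match several, such as miR-466b-3p with 8 hairpins and miR-669a-3p with 12.

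**Figure D1:**
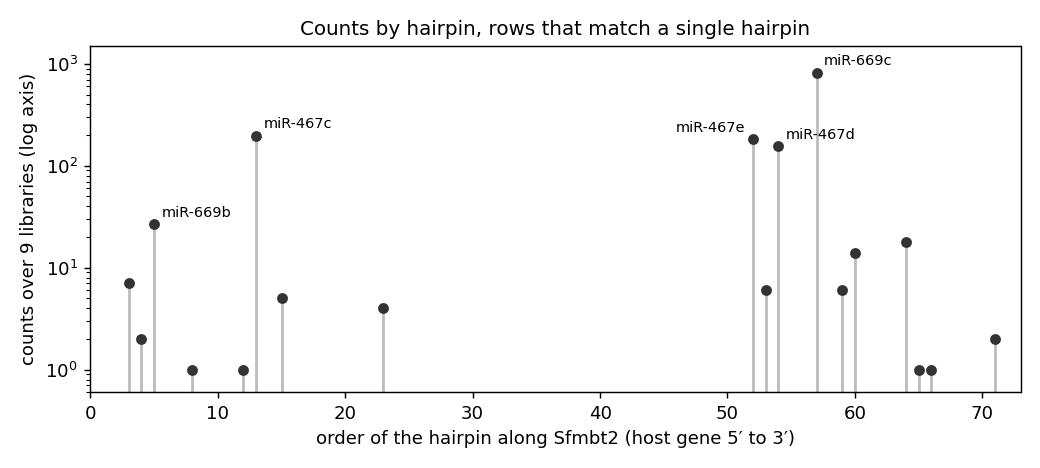
Counts over the 9 libraries (log axis) for rows that match a single hairpin, by the hairpin's order among the 71 within Sfmbt2. Labelled points are the 5 hairpins with the most counts, and miR-669c (number 57) has 819. The miR-466p-3p row, between miR-467e and miR-467d, has 6 counts, identical in every library to those of miR-466b-3p and miR-466c-3p.

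Most of the signal came from 5p arms. The 14 rows named as 5p held 58 of 60 counts in chow, 689 of 729 in HFD and 663 of 703 in AKI. The 13 rows named as 3p held 2, 37 and 39. For the hairpin of miR-467e both arms have a row: the 5p arm had 183 counts and the 3p arm 1. For miR-669o the 3p row had 14 counts and the 5p row 4, but both have counts identical to rows of other hairpins in every library, so the arms of this hairpin cannot be compared.

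The depth of the groups differed, and this limits what can be said about scarce rows. Library totals ran from 225002 to 306974 counts in chow, from 1953935 to 2162009 in HFD and from 1729416 to 2973432 in AKI. AKI replicates 2 and 3 carry another batch label than the other 7 libraries. The names of the HFD libraries hold a Sirt3 knock-in code although the genotype is given as wild type. Serum vesicles hold RNA of many tissues. All markers of the 5 lists for hepatocytes, red cells, brain, epithelium, and myeloid cells and platelets (28 in all) were detected in each group. Levels are counts per 1000000 of a library total after TMM scaling, which sets libraries level on a trimmed mean of their log ratios (normalised CPM). The red cell list summed to 279808 to 302804 in chow, 603271 to 693385 in HFD and 389345 to 558025 in AKI, and the hepatocyte list to 11617 to 14513, 8781 to 9105 and 10015 to 33401. AKI replicate 2 had the highest hepatocyte, brain and epithelial sums of all libraries, and within AKI the lowest red cell and myeloid and platelet sums. The brain list summed to 2599 to 3312, 3768 to 4066 and 4422 to 8386 in the same order of groups, the epithelial list to 10878 to 12260, 4301 to 5655 and 7173 to 15701, and the myeloid and platelet list to 31856 to 34636, 52163 to 55235 and 36798 to 41963. The part of these markers in the results on the cluster was not tested. The labels name separate samples but not separate animals, so the p-values cover the spread among these 9 samples, which may be technical. Fewer vesicles of one origin and less RNA per vesicle cannot be told apart here.

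The cluster's counts were lowest in chow, whose libraries were also the shallowest, so depth and diet cannot be told apart in raw counts. The summed counts of the 30 rows were 16, 24 and 20 in chow replicates 1 to 3, then 290, 219 and 220 in HFD, and 332, 179 and 192 in AKI. Between 5 and 6 rows had a count in each chow library, against 11 to 19 in HFD and 9 to 21 in AKI. With every library thinned to 225002 counts, the expected number of rows with a count was 4.79 ± 0.247 in chow, 5.96 ± 0.596 in HFD and 5.80 ± 0.630 in AKI (SD, n = 3). The gap between chow and the other groups was thus about 1 row at equal depth.

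HFD was compared with chow for the effect of the diet. Of the 4 testable rows, miR-669c-5p rose 2.62-fold, and the 3 miR-467 rows had fitted folds of 2.21 to 3.02 without passing the test. The background for these counts is high: 37.7% of the 414 tested microRNAs were called at an adjusted p below 0.05 in this comparison, 21.5% as higher and 16.2% as lower (edgeR quasi-likelihood test, Benjamini-Hochberg adjustment over all 414). The count among the members, 1 of 4 and higher, is near that background.

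The most abundant member, miR-669c-5p, is a microRNA that has been described as increasing in ageing mouse liver. It had 10, 15 and 11 counts in the 3 chow libraries and 120 to 176 in HFD, which correspond to 25.5, 39.1 and 36.7 normalised CPM against 97.8, 87.3 and 79.6. All HFD libraries lay above all chow libraries. The log2 fold change was 1.39 (SE 0.25, 95% interval 0.83 to 1.94, edgeR adjusted p = 0.00127), rank 64 of 414 by p. Relative to library totals the deposited TPM values were 32.6, 51.2 and 48.9 in chow and 81.4, 66.1 and 61.4 in HFD. The groups did not overlap on this scale either, but the log2 fold change was 0.66 and was no longer called (edgeR adjusted p = 0.0694). In this comparison the TMM factors shift log2 fold changes up by 0.73 relative to library totals.

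The 3 miR-467 rows come from duplicated hairpins of the same array. In chow they rested on 1 to 4 counts per library. The row miR-467c-5p had 1, 1 and 4 counts in chow and 37, 24 and 24 in HFD, or 2.55, 2.61 and 13.4 against 20.6, 15.6 and 15.9 normalised CPM. Chow replicate 3 was the high library of its group and lay close to HFD. The log2 fold change was 1.60 (95% interval 0.26 to 2.93, edgeR adjusted p = 0.0597). Leaving out chow replicate 1, 2 or 3 gave 1.22, 1.24 and 2.72 (edgeR adjusted p = 0.212, 0.192 and 0.0127), and the row was called in 7 of 20 alternatives.

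The row miR-467d-5p had 1, 4 and 1 counts in chow and 29, 18 and 21 in HFD, or 2.55, 10.4 and 3.34 against 16.1, 11.7 and 13.9 normalised CPM. Here chow replicate 2 was the high library. The log2 fold change was 1.32 (95% interval 0.11 to 2.52, edgeR adjusted p = 0.0835). Leaving out chow replicate 1, 2 or 3 gave 0.95, 2.26 and 1.10 (edgeR adjusted p = 0.270, 0.0273 and 0.221), and the row was called in 1 of 20 alternatives. The row miR-467e-5p had 2, 3 and 3 counts in chow and 23, 28 and 29 in HFD, or 5.10, 7.82 and 10.02 against 12.8, 18.2 and 19.2 normalised CPM. Its groups did not overlap, with a log2 fold change of 1.15 (95% interval 0.19 to 2.10, edgeR adjusted p = 0.0584). It was called in 1 of 20 alternatives, without AKI replicate 2 (1.27, edgeR adjusted p = 0.0488), and ranged from 0.93 to 1.36 when single libraries were left out.

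**Figure D2:**
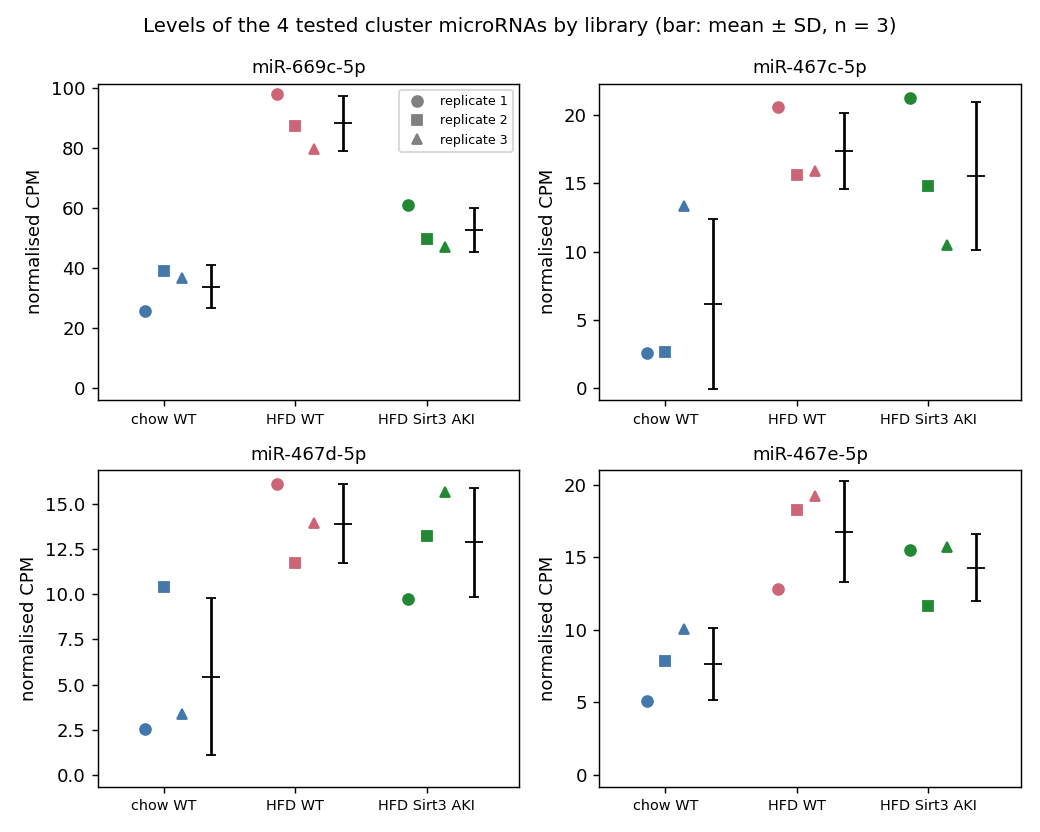
Normalised CPM of the 4 tested cluster microRNAs in each library, with symbols for replicates and a black bar for the mean ± SD (n = 3). For miR-669c-5p the 3 HFD libraries lie between 79.6 and 97.8, above the chow libraries and above the AKI libraries.

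On the TMM scale HFD lay above chow without overlap in all 4 testable rows, against 30.9% of the 414 tested microRNAs. That count has limits. The rows miR-467c-5p and miR-467d-5p reached the filter's level of 5.12 counts per 1000000 in 1 chow library each. They passed it through the high fat diet groups, so their place in the count depends on being high there. The rows miR-467e-5p and miR-669c-5p reached that level in all 3 chow libraries. With library totals, as TPM, the chow and HFD values of all 3 miR-467 rows overlapped, and their log2 fold changes were 0.88, 0.60 and 0.42 for miR-467c-5p, miR-467d-5p and miR-467e-5p. The median log2 fold change of the 4 rows was 1.35, beside 0.15 over all 414, and with library totals 0.63 beside -0.57. Because miR-467c-5p and miR-467d-5p entered through the high fat diet groups, nothing is read from the distance between the medians.

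Summed over all 30 rows the cluster stood at 40.8, 62.6 and 66.8 normalised CPM in chow and at 161, 143 and 146 in HFD. The group means were 56.7 ± 13.97 and 149.9 ± 9.93 (SD, n = 3), a ratio of 2.64 that is given with no test because the members were chosen with results known. Relative to library totals the pooled sum was 72.7 per 1000000 in chow (60 counts, exact binomial 95% interval 55.5 to 93.6) and 119 in HFD (729 counts, 110.2 to 128). These intervals pool the 3 libraries of a group, so they leave out the spread between libraries and cover counting error only. They may be too narrow even for that, since amplified reads without molecular identifiers are not independent molecules.

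By number, the 13 miR-669 rows summed to 36.4 ± 5.58 normalised CPM in chow and 96.3 ± 5.75 in HFD, and the 4 miR-467 rows to 19.3 ± 8.38 and 48.3 ± 2.33. The 12 miR-466 rows had no count in chow and 24 in HFD. A count of 0 over the chow group allows up to 3.64 counts per 1000000, and HFD had 3.91 (exact 95% interval 2.50 to 5.81), with 15 of its 24 counts in replicate 1. With rows of identical counts taken once, HFD had 17 counts, or 2.77 per 1000000, which is under that limit. The upper end of the exact 95% interval for chow was 4.47 per 1000000. Relative to library totals a difference in miR-466 was thus not shown at the depth of chow. After TMM scaling HFD had a mean of 4.76 normalised CPM (1.95 to 8.34), and no limit for chow was worked out on that scale. The only miR-297 row, miR-297b-5p, had 1 count in chow, 3 in HFD and 2 in AKI.

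**Figure D3:**
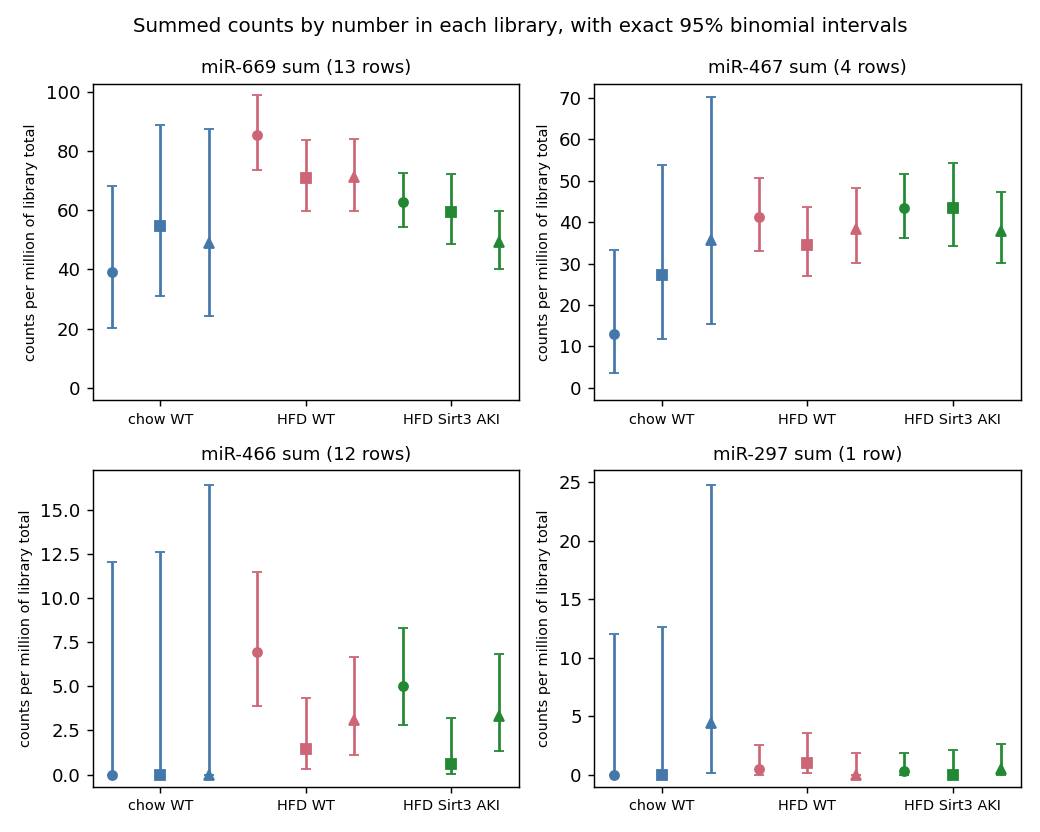
Summed counts per 1000000 of the library total for the rows of each number, by library, with exact 95% binomial intervals (counting error only). The intervals are widest in the shallow chow libraries, where miR-466 has 0 counts. For miR-467 the intervals of the HFD and AKI libraries overlap, while that of chow replicate 1 (3.55 to 33.4) lies below those of AKI replicates 1 and 2.

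Among the rows that could not be tested, miR-669b-5p was the most abundant, with 0, 1 and 0 counts in chow, 4, 5 and 7 in HFD and 5, 4 and 1 in AKI. The row miR-466d-3p had no count in chow, 5, 2 and 2 in HFD and 4, 1 and 0 in AKI. The rows miR-669a-3p and miR-669o-3p both had 1, 0 and 0 counts in chow, 1, 0 and 5 in HFD and 4, 2 and 1 in AKI. For miR-669f-5p there were no counts in chow, 0, 3 and 2 in HFD and 2, 0 and 0 in AKI. The low libraries of these rows differ from row to row.

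In all, 22 of the 30 rows had no count in chow. At its HFD level none of these would have been expected to reach 3 counts over the chow group, and the highest expectation was 1.21 counts, for miR-466d-3p. At this depth a lower level in chow was not detectable for any of them. Some rows were seen in a single library: miR-669d-5p had 3 counts, miR-669e-5p and miR-669h-5p had 2 each, and miR-466f and miR-466f-5p had 1 each, all in AKI replicate 3, which is in the smaller batch. These 5 rows were picked out after their values were seen.

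AKI was compared with HFD for the effect of adipose Sirt3 under the diet. No member passed the test. The row miR-669c-5p had the smallest p of the 4, with a fitted level 0.597 of that in HFD, and the miR-467 rows had fitted folds of 0.857 to 0.918. In this comparison 8.94% of the 414 microRNAs were called, 1.45% as higher and 7.49% as lower. At an unadjusted p below 0.05, 1 member was found by edgeR, beside 26.3% of all tested. DESeq2 also called 0 members after adjustment and had 1 at an unadjusted p below 0.05, and limma on TPM had 0 and 0. Both comparisons share the HFD libraries, so their values are not independent.

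The row miR-669c-5p had 169, 94 and 90 counts in AKI, or 60.9, 49.7 and 47.1 normalised CPM, against 97.8, 87.3 and 79.6 in HFD. All AKI libraries lay below all HFD libraries, as did those of 17.4% of the tested microRNAs, while 8.7% lay above without overlap. The log2 fold change was -0.75 (SE 0.22, 95% interval -1.23 to -0.26, edgeR adjusted p = 0.0568), rank 45 of 414 by p. In the larger batch alone, where AKI has 1 library and its spread is assumed to be that of the other groups, it was -0.40. With the batch label as a term it was -0.54. That estimate also rests on AKI replicate 1 alone, because no chow or HFD library is in the smaller batch. The groups differ in spread: the biological coefficient of variation was 40.2% in AKI, 10.4% in chow and 13.99% in HFD when each was estimated alone. The assumption of a shared spread is thus not met over all tested microRNAs. The main fit also takes 1 spread over the 3 groups for each microRNA (27.4% over all), so its p-values in both comparisons share this limit. Without AKI replicate 1 the log2 fold change of miR-669c-5p was -0.86 and called (edgeR adjusted p = 0.0266); that fit leaves AKI with the smaller batch only, so batch and group cannot be told apart in it.

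The miR-467 rows overlapped between the groups. In AKI replicates 1 to 3, miR-467c-5p had 21.2, 14.8 and 10.5 normalised CPM, miR-467d-5p had 9.72, 13.2 and 15.7, and miR-467e-5p had 15.5, 11.6 and 15.7. Replicate 1 was thus the highest library for miR-467c-5p and the lowest for miR-467d-5p. The log2 fold changes were -0.15 (95% interval -1.08 to 0.77), -0.12 (-0.97 to 0.72) and -0.22 (-0.93 to 0.48), with edgeR adjusted p-values of 0.833, 0.855 and 0.711. The intervals allow changes of about 1 on the log2 scale downward for miR-467c-5p and miR-467d-5p, so these data do not show that the levels were alike. All 3 directions turned with library totals, where the TMM factors shift log2 fold changes by -0.31.

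**Figure D4:**
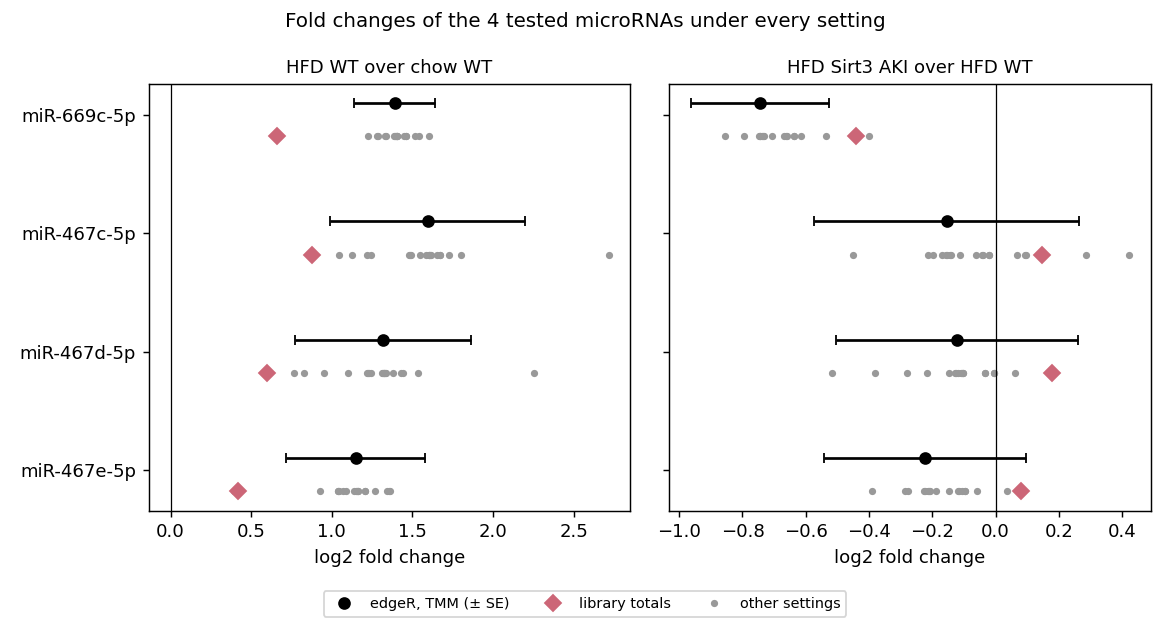
Log2 fold changes of the 4 tested microRNAs in both comparisons: black points are the edgeR fit with TMM (± SE), red diamonds the fit with library totals, grey points the other settings. In HFD over chow every setting lies above 0; in AKI over HFD the miR-467 rows lie on both sides of 0, while miR-669c-5p stays below 0.

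Summed over the 30 rows, AKI stood at 119.6, 94.6 and 100.5 normalised CPM, with a mean of 105 ± 13.04 against 149.9 ± 9.93 in HFD (SD, n = 3). The ratio was 0.700, a log2 difference of -0.52 that was -0.21 with library totals. The miR-669 sum was 58.7 ± 7.45 against 96.3 ± 5.75, and the miR-467 sum 42.7 ± 3.47 against 48.3 ± 2.33. The 12 miR-466 rows had 23 counts in AKI and 24 in HFD, from 1 to 15 per library in the first and 3 to 15 in the second.

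The balance between the abundant members needs no scaling between libraries. The counts of miR-669c-5p divided by the summed miR-467 counts gave 2.50, 1.88 and 1.38 in chow, 1.98, 1.91 and 1.60 in HFD and 1.31, 1.25 and 1.13 in AKI. The AKI libraries of both batches lay below those of HFD, and chow, whose ratios rest on 4 to 8 miR-467 counts, spanned the HFD range. The means were 1.92 ± 0.564, 1.83 ± 0.202 and 1.23 ± 0.0948 (SD, n = 3). Likewise miR-669c-5p made up 62.5, 62.5 and 55.0% of the cluster's counts in chow, 60.7, 61.2 and 54.5% in HFD and 50.9, 52.5 and 46.9% in AKI. This ratio was chosen after the values were seen and is given with no test.

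**Figure D5:**
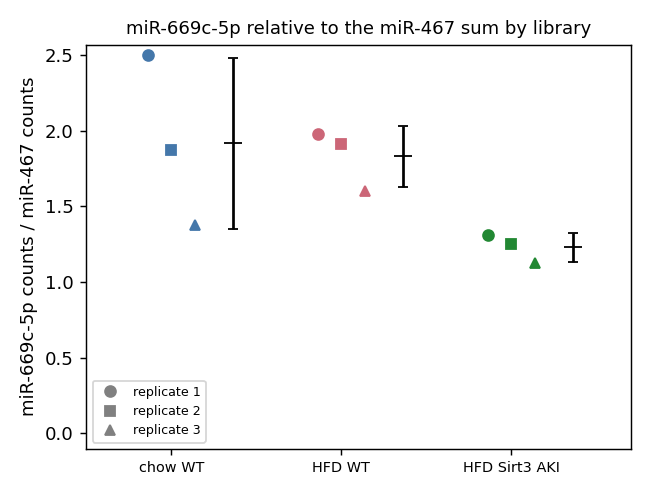
Ratio of miR-669c-5p counts to the summed counts of the 4 miR-467 rows in each library, with the mean ± SD (n = 3) as a black bar. The AKI libraries lie between 1.13 and 1.31, below the HFD libraries at 1.60 to 1.98.

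For comparison, the Dlk1-Dio3 cluster is another large imprinted microRNA array of the mouse. Of its 77 rows 25 were tested, and 5 were called higher and 0 lower in HFD over chow by edgeR, beside 21.5% called higher among all tested. Its median log2 fold change was 0.87 there, and 0.17 with 0 called under library totals. The count was also 0 with limma on TPM and without chow replicate 3, and from 1 to 7 without any other single library. In AKI over HFD, 0 were called by edgeR, with 4 at an unadjusted p below 0.05, 1 called by DESeq2 and 0 by limma. Without AKI replicate 1, 10 of 30 tested were called, all higher, beside 55 higher and 47 lower of all 441 tested. That fit leaves AKI with the smaller batch only, so batch and group cannot be told apart in it. With no filter 5 of 77 were called, all higher, beside 33 higher and 22 lower of all 1169. In the main fit the median of the Dlk1-Dio3 rows was 0.53, and that of the 4 Sfmbt2 rows -0.19. With batch as a term these medians were -0.41 and -0.31, in the larger batch alone -0.27 and -0.17, and without AKI replicate 2 0.096 and -0.094. In the fit with the batch term and in the larger batch, AKI is estimated from replicate 1 alone. The difference between the clusters was not tested. The repeat-like miR-672-5p, which lies outside the array, had log2 fold changes of -0.036 and -0.58 in these comparisons and was called in neither.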

How the data were processed

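Small RNA of serum vesicles was sequenced in 9 libraries. The authors deposited raw read counts for each mature microRNA together with TPM values that equal the count per 1000000 of the library total (largest difference 5.00e-05). Per the submitters' processing notes the tool Bowtie 0.12.2 and the build mm8 belong to the processing, without a stated role. How the authors trimmed reads, which microRNA reference they took and how they counted reads that fit several microRNAs is not given in the sources used here. Members and lists were chosen with earlier results of these data known.

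Counts of all 1169 microRNAs passed through filterByExpr at a minimum count of 10, TMM scaling and a fit by edgeR 4.0.16 quasi-likelihood (R 4.3.3) with group means over 9 libraries. A microRNA was called at an adjusted p below 0.05 over 414 tested; those not tested held 0.0543% of counts. Named members are the 4 tested, the 6 untested with the most counts (ties by table order, so miR-297b-5p was preferred over others with 6 counts), and others said to be chosen later. Alternatives were DESeq2 1.42.0 and its size factors, library totals, limma 3.58.1 on log2(TPM + 1) and log2(TPM + 0.5), no filter, only the 2 groups compared, batch terms, a replicate block, leaving out libraries, and identical rows counted once. SciPy 1.17.1 gave exact binomial intervals and, by the hypergeometric distribution, detection at equal depth. Floors are 3 counts over a group. No sum over members was tested.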

Additional observations from a re-analysis of the deposited data

How the results depend on the processing

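In HFD over chow the number of members called was 1 and became 0 under library totals or under limma on log2 TPM at either pseudocount. It became 2 with no filter, with only the 2 groups fitted and with batch as a term. All chow and HFD libraries are in the larger batch, so the batch term does not adjust this comparison. When single libraries were left out the number called ranged from 1 to 3. Over all tested, calls were 107 higher and 64 lower of 1169 with no filter, and 92 and 94 of 348 with the 2 groups. With batch as a term they were 90 and 71 of 414. The 3 came without AKI replicate 2, beside 118 higher and 70 lower of 428. In the larger batch alone, where AKI has 1 library, the log2 fold changes of miR-669c-5p and miR-467c-5p were 1.46 and 1.67. Over the settings of HFD over chow, miR-669c-5p was called in 17 of 20 alternatives. Its log2 fold change ranged from 0.66 to 1.60 (edgeR or limma adjusted p from 3.88e-05 to 0.0694). In AKI over HFD the number called was 0 and ranged from 0 to 1 when single libraries were left out; miR-669c-5p ranged from -0.86 to -0.40 (adjusted p from 0.0266 to 0.467). Directions turned in that comparison for miR-467c-5p (0.15 with library totals, 0.094 and 0.096 with limma, 0.29 with batch as a term, 0.42 in the larger batch, 0.067 without AKI replicate 3), miR-467d-5p (0.18 with library totals, 0.17 and 0.17 with limma, and from -0.28 to 0.062 without single libraries, above 0 without AKI replicate 1) and miR-467e-5p (0.080 with library totals, 0.081 and 0.084 with limma, 0.035 in the larger batch). The summed level had a log2 ratio of 1.40 for HFD over chow, 0.67 with library totals and 1.21 to 1.54 without single libraries; for AKI over HFD it was -0.52, then -0.21, and -0.62 to -0.45. Beyond the scaling shift, the cause of these changes was not tested. Asking for at least 2 counts, members detected at equal depth numbered 2.45 in chow, 3.58 in HFD and 3.55 in AKI. Over all tested microRNAs, calls in HFD over chow were 89 higher and 67 lower, 20 and 143 with library totals, and 67 and 76 with DESeq2; in AKI over HFD they were 6 and 31, 36 and 11, and 35 and 26, and 3 in all with only the 2 groups fitted. Chow depth, 225002 to 306974 counts, limits every scarce member.

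Deviations of samples of the same replicate number had correlations from -0.0348 to 0.115 for HFD and chow. For AKI and HFD they ran from -0.0803 to -0.00692. Samples of different numbers had correlations from -0.0898 to 0.0667 and from -0.120 to 0.126 in the same order. With so few samples per group these values cannot tell whether the numbers pair samples. With a replicate block 1 member was called in HFD over chow (miR-669c-5p 1.39, adjusted p = 0.00392) and 0 in AKI over HFD (-0.75, adjusted p = 0.0942), both by edgeR.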
